A study of Bos taurus with 9 samples.

Results

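The regions described here were 6823 peaks of H3K27ac (acetylation of histone H3 at lysine 27) that were called in rumen epithelium after weaning where the list before weaning had no H3K27ac peak, and that also lay clear of the repressive mark H3K9me3 (trimethylation of histone H3 at lysine 9) at both time points. They were chosen from the peak lists themselves. Of the 30446 H3K27ac peaks after weaning, 7040 (23.1%) shared no base with an older H3K27ac peak, and 217 of those were set aside because they shared at least 1 base with an H3K9me3 peak. The other 6823 are called gained peaks in the text. They made up 22.4% of the H3K27ac list after weaning, and they are 6823 of the 130580 peaks in the 8 lists of the series.

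The tissue was rumen epithelium of Holstein calves, a dairy breed, collected either before or after weaning. The rumen is the fermentation chamber of the bovine stomach, and weaning replaces milk by solid feed. Chromatin immunoprecipitation with sequencing (ChIP-seq) was run at both time points for H3K27ac, for H3K9me3, for H3K9ac (acetylation of the same histone at lysine 9) and for RNA polymerase II (RNA pol II), with 1 library per target and time point. A single input library, chromatin sequenced without an antibody, was the background for peak calling. The labels give no age, sex or number of animals and name no genetic modification or further treatment. By the labels both H3K27ac libraries ran on lane 2, as did both RNA pol II libraries and H3K9me3 before weaning, whereas both H3K9ac libraries and H3K9me3 after weaning ran on lane 1 and the input on lane 5. For RNA pol II the sources conflict: GEO's labels give the shorter list as after weaning, while the study's text names it as before weaning. The labels were followed here, and under the other reading every RNA pol II value before and after weaning would change places. For H3K9me3, a difference between time points and one between lanes cannot be told apart. With 1 library per group no difference between time points has a replicate error, no test of weaning was possible, and no p-value is given. Read depth is unknown from the peak positions. The study's supplement holds a mapping summary of its libraries, which was not used here. The intervals given are 95% Wilson intervals over peaks of single libraries, which cover counting error only.

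Histone acetylation is laid down by enzymes such as p300 and CBP and removed by histone deacetylases. H3K27ac is found at active promoters and at active enhancers, the regulatory elements that lie away from a gene's start. H3K9ac and RNA pol II are concentrated at active promoters, whereas many distal enhancers carry H3K27ac with little of either. H3K9me3 marks heterochromatin and silenced repeats. In the rumen epithelium, butyrate from microbial fermentation is both a fuel and an inhibitor of histone deacetylases, and its supply increases when calves begin to eat solid feed.

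The H3K27ac lists were very unequal in length, with 74249 peaks before weaning and 30446 after. Gained peaks were therefore new places within a list that was shorter as a whole, and 53552 older peaks were lost over the same interval. Being gained was a matter of position at the margin. Among the gained peaks 2 abutted an older peak with 0 bases between them, and 35 more lay 1 to 10 bases away. On the other side of the rule, 26 peaks after weaning that were counted as kept shared only 1 to 10 bases with an older peak. The count of gained peaks also depended on these choices. It was 12509 when the older list was cut to its widest peaks, as many as after weaning, which changes both its length and its peak widths. With only the H3K27ac peaks above the median width of both lists it was 2296, and with older H3K27ac and H3K9me3 peaks extended by 1 kb it was 4439. It was 19354 when a match required a reciprocal overlap of 50%.

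Gained peaks were narrow. Their median width was 243 bp (quartiles 210 and 303 bp), against 311 bp (239 and 445 bp) for the 23362 kept H3K27ac peaks, those after weaning that touched an older H3K27ac peak and no H3K9me3. Lost peaks, the 53500 older H3K27ac peaks outside H3K9me3 with no peak after weaning, had a median of 299 bp. The lowest width in the lists, 200 bp, was found for 16.1% of the gained peaks (15.28 to 17.03), 6.67% of the kept peaks (6.36 to 7.0) and 6.84% of the lost peaks (6.63 to 7.05). The gained share of the list after weaning decreased with width, from 34.5% of peaks of 200 to 249 bp to 25.2% at 250 to 299 bp, 18.8% at 300 to 399 bp and 7.26% at 400 bp or more. A narrow peak has fewer bases with which to touch an older one, so this gradient is in part built into the rule. Width did not vary with the distance to the older peaks. The median was 242 bp for gained peaks within 1 kb of an older peak and 240 bp for those more than 50 kb away. In all, gained peaks covered 1.86 Mb, against 8.76 Mb for the kept peaks.

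The first question was whether gained peaks lay beside older H3K27ac peaks or stood alone. Most lay close to one. The median number of bases between a gained peak and the nearest older peak was 2466, with quartiles of 528 and 11930 bp. Within 1 kb of an older peak lay 2378 gained peaks, or 34.9% (33.7 to 36.0), and a further 1871 (27.4%, 26.4 to 28.5) lay at 1 to 5 kb. At 5 to 50 kb there were 1982 (29.05%, 27.98 to 30.1), and 592 (8.68%, 8.03 to 9.37) stood more than 50 kb from any older peak. The farthest lay 1327339 bp away. The share within 1 kb was 19.6% after merging peaks within 1 kb of each other and 76.5% when a match required the reciprocal overlap. The share beyond 50 kb was 18.4% against the shortened older list and 3.30% with the reciprocal overlap.

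These shares can be read against the amount of genome at each distance. The sequence within 1 kb of an older peak made up 3.45% of the genome outside older peaks and held 26.3 gained peaks per Mb. The density was 8.48 per Mb at 1 to 5 kb and 2.30 per Mb at 5 to 50 kb. Beyond 50 kb, in 55.2% of the genome outside older peaks, it was 0.409 per Mb, so that the density within 1 kb was 64.3 times as high. In finer steps the density was 27.3 per Mb at 0 to 100 bp and highest at 100 to 200 bp from the edge of an older peak, with 41.95 per Mb. That step includes gaps of exactly 200 bp, which recurred among gained peaks, so it is not read as a preferred distance. Farther out the density was lower. It was 34.2 per Mb at 200 to 300 bp, 16.7 per Mb at 900 to 1000 bp and 0.248 per Mb at 200 to 500 kb. Lost peaks had the same kind of gradient around the peaks after weaning, at 262 per Mb within 1 kb and 6.58 per Mb beyond 50 kb, a ratio of 39.9. Their median distance to the nearest peak after weaning was 9948 bp. The lists on which the 2 sets of distances rest differ in length, so these medians give no order between gained and lost peaks.

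**Figure D1:**
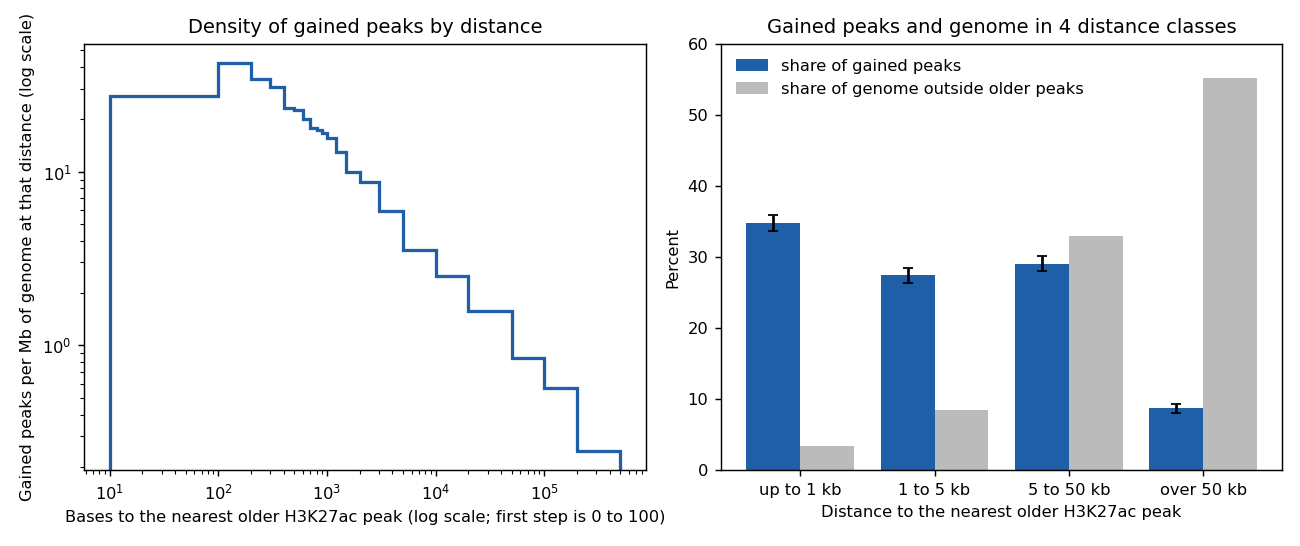
Left, number of gained H3K27ac peaks per Mb of genome (log scale) against the number of bases to the nearest H3K27ac peak before weaning (log scale, first step 0 to 100 bases). Right, percent of gained peaks (blue, bars 95% Wilson interval) and percent of the genome outside older peaks (grey) in 4 distance classes: the class up to 1 kb holds 34.9% of gained peaks in 3.45% of that genome, and the class over 50 kb holds 8.68% in 55.2%.

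Gained peaks beside an older peak were next described by the fate of that neighbour. For 1194 of the 2378 (50.2%, 48.2 to 52.2) the nearest older peak was itself still present after weaning, under another peak. Over the whole list before weaning 27.9% of the peaks were kept. That list is an unlike background, since the neighbours were chosen for having a gained peak within 1 kb. Of the lost peaks, 22.2% lay more than 50 kb from any peak after weaning. The difference between the shares is therefore no result. For the remaining 49.8% the nearest older peak had no peak on it after weaning, and the new peak stood next to its former position. The neighbours of gained peaks were not wide. Their median width was 304 bp, compared with 343 bp for all older peaks and 593 bp for the older peaks that were kept. They also carried H3K9ac before weaning less often, with 9.29% (8.19 to 10.5) against 15.3% (15.1 to 15.6) of all older peaks.

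A smaller group filled the space between older peaks. There were 426 gained peaks (6.24%, 5.69 to 6.84) with an older peak within 1 kb on both sides. In 111 of these cases (26.1%, 22.1 to 30.4) both older peaks were kept, in 196 (46.0%, 41.3 to 50.8) 1 of them was kept, and in 119 (27.9%, 23.9 to 32.4) both were lost. Gained peaks were thus found between older peaks that were still present as well as between older peaks that were not. Of all gained peaks, 19.7% (18.7 to 20.6) lay within 1 kb of a kept peak of the list after weaning.

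The 5 widest gained peaks beside an older peak show the range of settings. The peak at chromosome 6, positions 104705065 to 104705918 (854 bp), lay 383 bp from an older H3K27ac peak and 370 bp from a kept peak, and its nearest H3K9ac peaks were 505944 bp away before and 605161 bp away after weaning. The peak of the same width at chromosome 25, positions 41909701 to 41910554, lay 283 bp from an older peak, 265 bp from a kept peak and 1303 bp from another gained peak. Neither of them had an H3K9ac peak within 25 kb at either time point. The peak at chromosome 13, positions 82103851 to 82104673 (823 bp), differed in lying 877 bp from an H3K9ac peak before weaning, and it was 200 bp from an older H3K27ac peak. The peak at chromosome 7, positions 17855649 to 17856452 (804 bp), was 191 bp from an older peak and 71 bp from another gained peak. At chromosome 26, positions 42558039 to 42558788 (750 bp), the older peak 834 bp away was not kept, and the nearest kept peak was 19770 bp away. None of these 5 peaks lay within 200 kb of an RNA pol II peak at either time point.

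For 592 gained peaks, any older H3K27ac peak was more than 50 kb away. Of these, 295 (49.8%, 45.8 to 53.9) also had no other gained peak within 50 kb, and no peak after weaning that touched an older one. The 217 gained peaks on H3K9me3 were not part of this count, so some of the 295 may have had one of those nearby. The others had at least 1 other H3K27ac peak of the list after weaning within 50 kb. Another gained peak lay within 12500 bp of 213 of them (36.0%, 32.2 to 39.9), against 48.8% (46.8 to 50.8) of the gained peaks beside an older one and 57.4% (55.1 to 59.6) of those at 1 to 5 kb. The widest of the 592 were of about the same width as the widest peaks beside older ones. At chromosome 22, positions 42208631 to 42209446 (816 bp), the nearest older H3K27ac peak was 375450 bp away, and another gained peak lay 343 bp away. At chromosome 20, positions 41703776 to 41704576 (801 bp), the distance was 68539 bp. A peak of 686 bp on chromosome 4 (29331113 to 29331798) lay 206187 bp from an older peak and 1679472 bp from another gained one. A peak of 685 bp on chromosome 14 (48066336 to 48067020) lay 250036 bp from an older peak, and a peak of 678 bp on chromosome 8 (97899951 to 97900628) lay 370335 bp from one. All 5 were more than 200 kb from the nearest H3K9ac and RNA pol II peaks of both time points on the same chromosome. No RNA pol II peak was listed on chromosomes 20 and 22 after weaning.

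Another gained peak lay within 12500 bp of 48.6% (47.4 to 49.8) of the gained peaks. Joining gained peaks at most 12500 bp apart gave 4702 runs, of which 3506 held 1 peak, 743 held 2, 336 held 3 or 4 and 117 held 5 or more. The 117 runs contained 722 gained peaks. In 99 of them at least 1 older H3K27ac peak lay inside the span. H3K9ac lay inside 29 spans before weaning and 28 after weaning, RNA pol II inside 2 at either time, and H3K9me3 inside 0.

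The run with the most gained peaks was on chromosome 7, positions 63062221 to 63157510, where 19 of them lay within 95.3 kb. The same span had 25 older H3K27ac peaks and 24 kept peaks after weaning, together with 5 H3K9ac peaks before and 4 after weaning. It held no RNA pol II or H3K9me3 peak. The gained peaks of this run were 200 to 768 bp wide and lay 74 to 5581 bp from an older peak, so they were interspersed among a region already acetylated before weaning. A run of 11 on chromosome 4, positions 46400521 to 46465955, also lay among many others, with 29 older and 21 kept peaks, and had 7 H3K9ac peaks before and 1 after weaning. A second run of 11, on chromosome 16 at positions 43686165 to 43718726, had 8 older and 6 kept peaks, and included the widest gained peak of all (1061 bp). On chromosome 10, positions 86253339 to 86292482, 10 gained peaks lay among 10 older and 6 kept peaks, and 7 of the 10 were within 1 kb of an older one. The run of 10 on chromosome 18, positions 35127909 to 35153332, was different. It held 1 older peak and 1 kept peak, no peak of another mark, and the median distance of its gained peaks to an older peak was 3137 bp.

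In 18 of the 117 runs no older H3K27ac peak lay inside the span. One of these was singled out after its values were seen, because it was the run with the most peaks among those farther than 50 kb from any older peak. It lay on chromosome 3, positions 109884103 to 109897915, and consisted of 9 gained peaks of 200 to 543 bp. The first 8 lay close together, and the last began 13.6 kb after the start of the run. Their distances to the nearest older H3K27ac peak were 111834 to 125104 bp, and the nearest kept peak after weaning was no closer than 116954 bp. The H3K9ac peaks nearest to them were at least 117084 bp away before and 154636 bp away after weaning. No peak of RNA pol II or H3K9me3 was within 100 kb. The 9 peaks come from the 1 H3K27ac library after weaning and have no replicate.

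**Figure D2:**
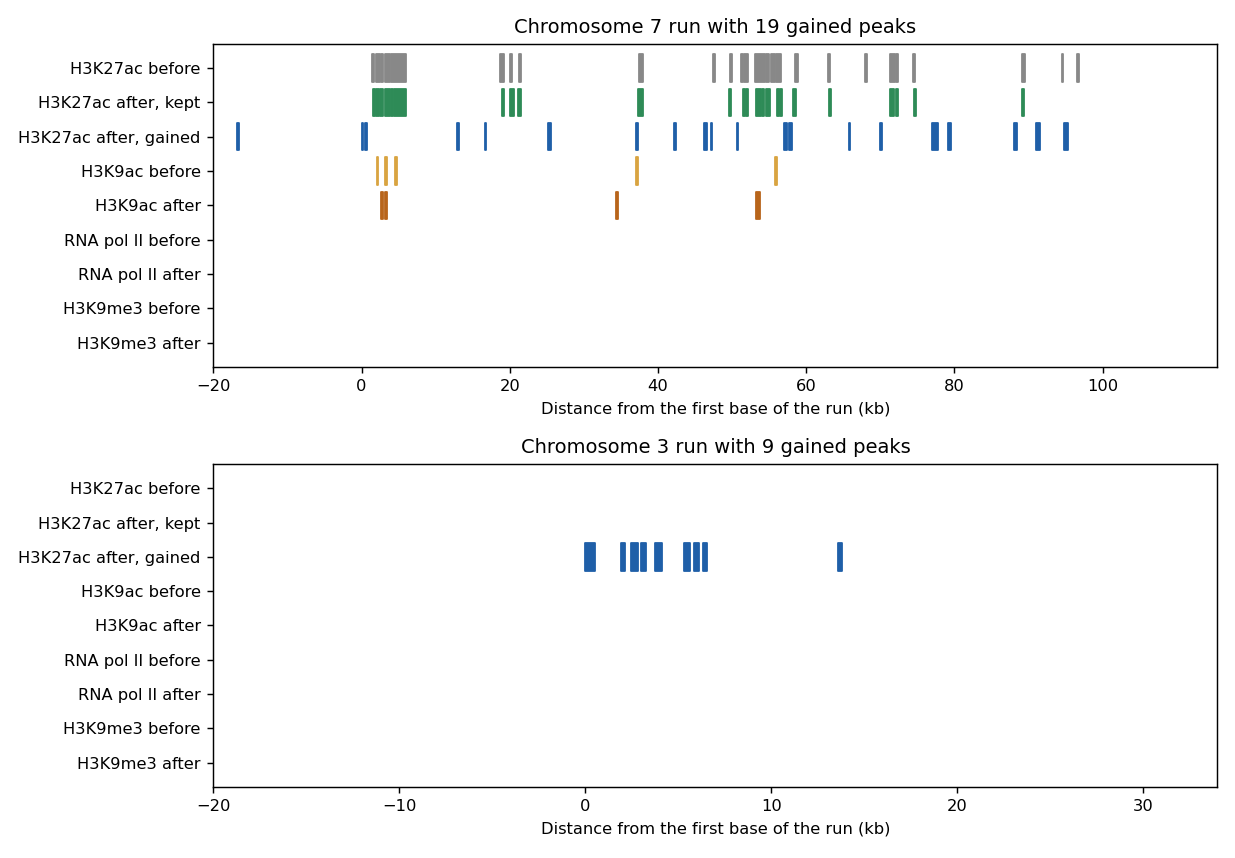
Peaks of each list in and around 2 runs of gained H3K27ac peaks, drawn to scale as kb from the first base of the run, with 20 kb shown on either side. In the chromosome 7 run 19 gained peaks (blue) alternate with 25 older (grey) and 24 kept peaks (green) and with H3K9ac, whereas in the chromosome 3 run 9 gained peaks are the only peaks of any list in the window.

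Gained peaks were found on all 30 chromosomes (1 to 29 and X). Their number per Mb was highest on chromosome 19, at 4.94 per Mb, and lowest on X, at 0.269 per Mb, and across the 29 autosomes it had Pearson's r = 0.89 and Spearman's rho = 0.79 with the number of older H3K27ac peaks per Mb. As a share of the H3K27ac list after weaning, gained peaks were fewer on autosomes dense in older peaks. Gained peaks made up 33.2% (29.6 to 37.1) of that list on chromosome 24, 28.8% on chromosome 1 and 28.3% on chromosome 20, but 17.6% on chromosome 19, 16.3% on chromosome 18 and 15.7% (13.2 to 18.5) on chromosome 29. The share had r = -0.73 and rho = -0.78 with the same number over the 29 autosomes. With X, which combined the lowest density with a share of 17.5%, the values were r = -0.57 and rho = -0.63. Chromosomes share the same 2 libraries, and the length of the older list enters both quantities, so this is a description only. The share of gained peaks within 1 kb of an older peak ranged from 19.2% on chromosome 27 to 45.5% on chromosome 29.

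**Figure D3:**
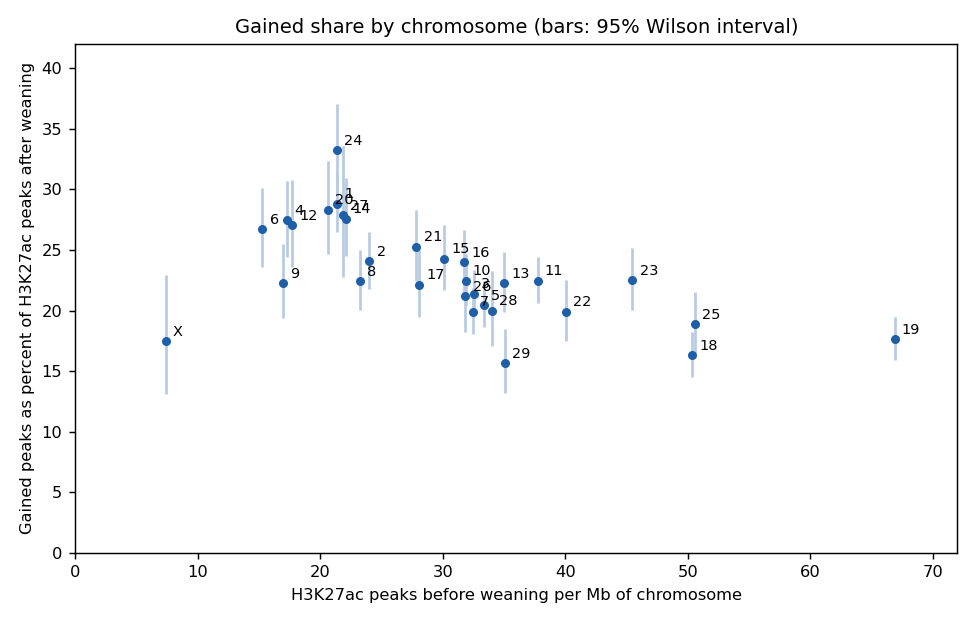
Gained H3K27ac peaks as a percent of all H3K27ac peaks after weaning (bars 95% Wilson interval) against the number of H3K27ac peaks before weaning per Mb, 1 point per chromosome. Chromosome 24 is highest with 33.2%, chromosome 19, the densest in older peaks, has 17.6%, and X lies apart with few older peaks and 17.5%.

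On a finer scale 1493 of 2675 bins of 1 Mb held a gained peak and 184 held 10 or more. The 100 fullest bins contained 23.5% of the gained peaks. The fullest was on chromosome 7 at 63 to 64 Mb, the place of the run with the most gained peaks, where 32 of 94 H3K27ac peaks after weaning were gained. In some bins gained peaks outnumbered all others. On chromosome 21 at 47 to 48 Mb, 24 of 33 peaks after weaning (72.7%) were gained beside 20 older peaks, and on chromosome 22 at 29 to 30 Mb it was 24 of 35 (68.6%). On chromosome 1 at 78 to 79 Mb it was 21 of 33 (63.6%), and on chromosome 8 at 99 to 100 Mb it was 24 of 40.

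The other marks at gained peaks were examined next, since those lists were not used to choose them, apart from H3K9me3. Gained peaks were almost free of them. No peak of H3K9ac or RNA pol II at either time point touched 6669 of the 6823 (97.7%, 97.4 to 98.1), compared with 63.5% (62.9 to 64.1) of the kept peaks and 92.0% (91.8 to 92.2) of the lost peaks. H3K9ac before weaning touched 80 gained peaks (1.17%, 0.943 to 1.46), where it touched 26.1% of all H3K27ac peaks after weaning. Among kept peaks the share was 33.3% (32.7 to 33.9) and among lost peaks 7.27% (7.06 to 7.5). The H3K9ac lists were very unequal in length, with 14384 peaks before and 2127 after weaning. Differences between the time points in the share with H3K9ac are therefore not read as changes in the mark. H3K9ac after weaning touched 77 gained peaks (1.13%, 0.904 to 1.41), against 4.83% of the whole H3K27ac list. Here the kept peaks had 5.19% (4.92 to 5.48) and the lost peaks 0.424% (0.373 to 0.483). The order of gained and lost peaks is no result, because gained peaks were chosen for having no H3K27ac before weaning and lost peaks for having none after weaning.

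RNA pol II was almost absent from gained peaks, whichever list belongs to which time point. By the labels it touched 3 gained peaks before weaning (0.0440%, 0.0150 to 0.129) and 1 after weaning (0.0147%, 0.00259 to 0.0830), where the background over all H3K27ac peaks after weaning was 4.53% and 0.801%. Kept peaks had 5.02% (4.75 to 5.31) before and 0.0642% (0.0389 to 0.106) after weaning. For RNA pol II after weaning the intervals of gained and kept peaks overlapped. Of the 244 H3K27ac peaks after weaning that it touched, 193 were among the 217 gained peaks on H3K9me3 that the rule leaves out. With the older list cut to its widest peaks RNA pol II before weaning was at 0.376%, and with the reciprocal overlap of 50% RNA pol II was at 2.32% before and 0.222% after weaning. The lists held 2056 RNA pol II peaks before and 738 after weaning by the labels.

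Part of this follows from the rule. Most H3K9ac peaks before weaning lay on older H3K27ac peaks, which gained peaks avoid by definition. When H3K9ac peaks that touched older H3K27ac or H3K9me3 were set aside, 1340 remained before weaning and 321 after weaning. Gained H3K27ac peaks touched 74 of the 1340 (5.52%, 4.42 to 6.88) and 73 of the 321 (22.7%, 18.5 to 27.6). The number touched was thus nearly the same at both times, and the order of the shares is no result, since gained peaks were chosen for H3K27ac after weaning. With the older list cut to its widest peaks the shares with H3K9ac were 4.76% before and 1.76% after weaning. With the reciprocal overlap of 50%, which counts partly overlapping peaks as gained, they were 15.9% and 1.93%. When only H3K27ac peaks above the median width of 324 bp were used, the H3K9ac shares were in the other order, 2.92% before and 3.35% after weaning, as they were without the H3K9me3 condition, with 1.99% and 3.15%. The order also turned after merging peaks within 1 kb (1.03% and 1.17%) and without peaks of 200 bp (1.19% and 1.24%), though these values stayed within the reported intervals.

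**Figure D4:**
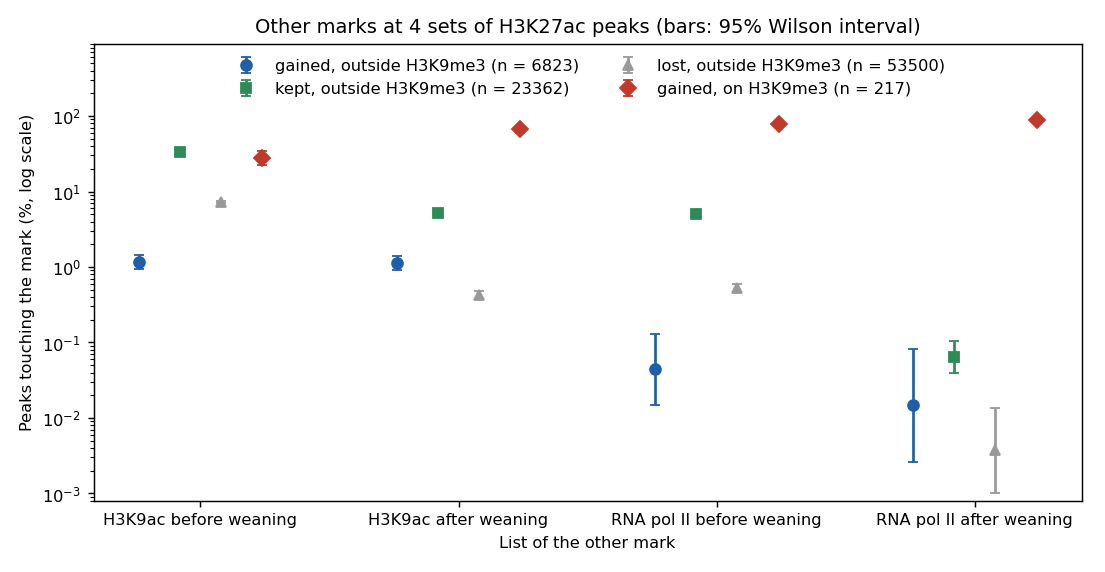
Percent of peaks (log scale, bars 95% Wilson interval) that share at least 1 base with H3K9ac or RNA pol II before or after weaning, for gained peaks outside H3K9me3 (blue), kept peaks (green), lost peaks (grey) and the gained peaks on H3K9me3 that the rule leaves out (red). Gained peaks lie near 1% for H3K9ac and below 0.1% for RNA pol II, while the 217 gained peaks on H3K9me3 lie between 27.6% and 88.9%.

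H3K9ac in the surroundings of gained peaks was described by the distance to older H3K27ac peaks. Since most H3K9ac peaks before weaning lay on older H3K27ac peaks, a decrease of H3K9ac before weaning with that distance is largely built into the classes. Counting H3K9ac within 1 kb, a wider window that includes the peaks touched, 5.10% of gained peaks (4.60 to 5.65) had it nearby before weaning. After weaning, when the H3K9ac list was shorter, the share was 2.92% (2.54 to 3.34). Kept peaks had 49.7% before and 9.16% after weaning, and lost peaks 19.3% and 1.71%. The order of these sets is in part built into the rule. For gained peaks within 1 kb of an older H3K27ac peak the shares were 12.2% (11.0 to 13.6) and 5.34% (4.51 to 6.32). For those more than 50 kb away it was 0.507% (0.173 to 1.48) and 0.676% (0.263 to 1.72). Touching H3K9ac before weaning decreased over the same classes, from 1.93% (1.45 to 2.57) within 1 kb to 1.12% (0.735 to 1.71) at 1 to 5 kb, 0.555% (0.310 to 0.991) at 5 to 50 kb and 0.338% (0.0927 to 1.22) beyond. Touching H3K9ac after weaning varied less, with 1.39% (0.990 to 1.94), 1.07% (0.693 to 1.65), 1.06% (0.694 to 1.61) and 0.507% (0.173 to 1.48), and these intervals overlapped.

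Since wide peaks are more likely to touch another mark, shares were also compared among peaks of like width. Gained peaks had a lower H3K9ac share than kept peaks in each of 4 width classes, a comparison added after the data were seen. Like width does not remove the effect of the rule, since kept peaks touch older H3K27ac and gained peaks avoid it. Most H3K9ac peaks before weaning lay on older H3K27ac, so for that list the difference is largely set by the rule at every width. For H3K9ac before weaning, gained peaks had 1.16% (0.865 to 1.56) at 200 to 249 bp, 1.25% at 250 to 299 bp, 1.18% at 300 to 399 bp and 1.03% (0.473 to 2.23) at 400 bp or more, so the share did not increase with width. Kept peaks went from 19.7% (18.7 to 20.6) to 50.3% (49.1 to 51.4) and lost peaks from 2.27% (2.06 to 2.51) to 15.8% (15.2 to 16.4) between the narrowest and the widest class. For H3K9ac after weaning the gained peaks went from 0.650% (0.437 to 0.965) to 3.09% (1.97 to 4.84). Lost peaks, chosen for having no H3K27ac after weaning, had 0.269% (0.202 to 0.359) and 0.649% (0.536 to 0.787), and kept peaks had 1.53% (1.27 to 1.85) and 10.9% (10.2 to 11.6).

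**Figure D5:**
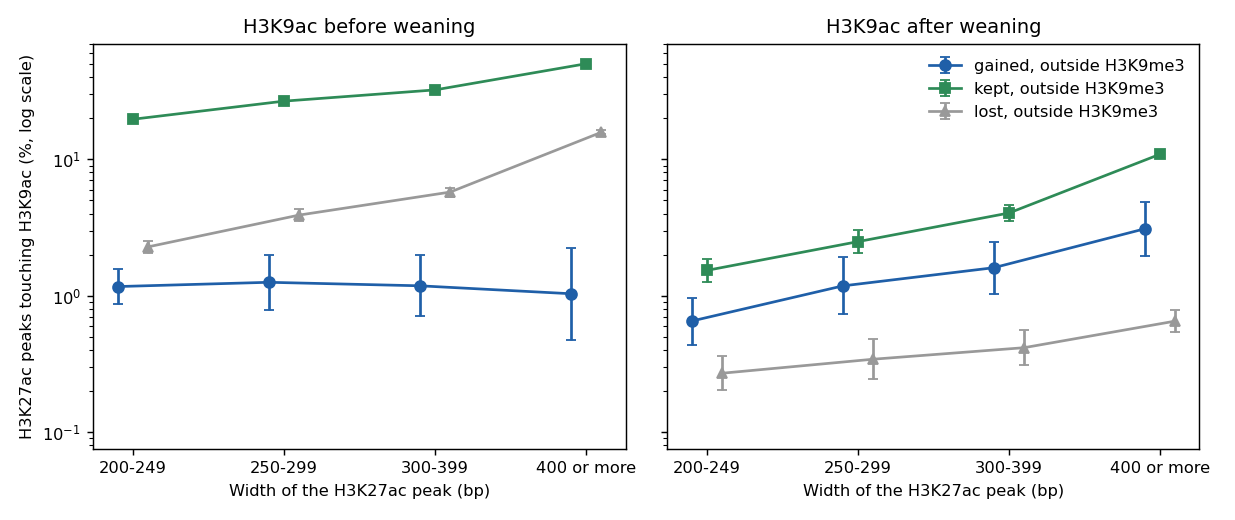
Percent of H3K27ac peaks that touch H3K9ac (log scale, bars 95% Wilson interval) in 4 classes of H3K27ac peak width in bp, for H3K9ac before weaning (left) and after weaning (right). Gained peaks (blue) stay near 1% in every class on the left and go from 0.650% to 3.09% on the right, below the kept peaks (green) in each class. On the left this difference from the kept peaks is largely set by the rule. Lost peaks (grey) were chosen for having no H3K27ac after weaning.

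The gained H3K27ac peaks with H3K9ac before weaning and those with H3K9ac after weaning were largely separate sets. Of 153 gained peaks with H3K9ac at either time, 76 had it before weaning only, 73 after weaning only and 4 at both times. At 72 of the 77 gained peaks with H3K9ac after weaning (93.5%, 85.7 to 97.2), the H3K9ac peak was itself gained, that is without an H3K9ac peak before weaning. That share is largely set by the rule, which avoids older H3K27ac. Over the whole H3K9ac list after weaning 55.7% (53.6 to 57.8) of the peaks were gained, but of the 321 clear of older H3K27ac and of H3K9me3 it was 312 (97.2%, 94.8 to 98.5). Seen from the other list, 72 of the 1185 gained H3K9ac peaks touched a gained H3K27ac peak. At 32 of those 72 gained H3K27ac peaks an older H3K27ac peak lay within 1 kb, at 18 it lay at 1 to 5 kb, at 20 at 5 to 50 kb and at 2 farther away. The 80 gained peaks with H3K9ac before weaning were distributed as 46, 21, 11 and 2 over the same distance classes, so most of them lay within 1 kb of an older H3K27ac peak, where 34.9% of all gained peaks lay. At 5 of the 80 the H3K9ac peak itself also touched an older H3K27ac peak.

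The 4 gained peaks with H3K9ac at both times included 2 of the 3 that ever touched RNA pol II. The peak at chromosome 5, positions 45355485 to 45355803 (319 bp), touched H3K9ac and RNA pol II before and after weaning. It was the only gained peak with RNA pol II after weaning, and it lay 30393 bp from the nearest older H3K27ac peak and 520808 bp from the nearest H3K9me3 peak before weaning. The peak at chromosome 10, positions 101853138 to 101853353 (216 bp), touched H3K9ac at both times and RNA pol II before weaning, 50536 bp from an older H3K27ac peak. The third, at chromosome 29, positions 9818564 to 9818837 (274 bp), touched RNA pol II before weaning without H3K9ac. H3K9ac at both times was also found under a gained peak of 455 bp on chromosome 22 (6638537 to 6638991), 1400 bp from an older H3K27ac peak, and under one of 233 bp on chromosome 25 (27266769 to 27267001), 3635 bp from an older peak. At these 4 places H3K9ac was listed before weaning, and H3K27ac was listed after weaning only.

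H3K9me3 was absent from gained peaks by the rule, which also bears on the shares close to it, so these are a description only. Within 1 kb of an H3K9me3 peak of either time point lay 15 gained peaks (0.220%, 0.133 to 0.362), compared with 0.380% of the genome. Within 10 kb the share was 1.92% (1.62 to 2.27) against 2.39% of the genome, and within 100 kb it was 17.6% (16.7 to 18.5) against 16.9%.

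The 217 gained peaks on H3K9me3, which the rule leaves out, were of another kind. RNA pol II, with time points by the labels, touched 88.9% of them (84.1 to 92.5) after and 77.4% (71.4 to 82.5) before weaning. H3K9ac touched 27.6% (22.1 to 33.9) before and 66.8% (60.3 to 72.7) after weaning. H3K9me3 was listed at both time points under 200 of the 217. Of these peaks, 55 were in the dense cluster on chromosome 17 between 50 and 52 Mb, where 0 of the 6823 gained peaks lay. The widest H3K27ac peak after weaning on H3K9me3, at chromosome 17, positions 50641248 to 50642330 (1083 bp), was in this cluster and touched a peak of each of the other 7 lists, older H3K27ac included, so it was not one of the 217. Leaving H3K9me3 out of the rule would raise the share of gained peaks with RNA pol II after weaning from 0.0147% to 2.76%.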

How the data were processed

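The deposited values are the chromosome, start and end of each peak in bp, 1 list per ChIP library, with no height or p-value. Per the study's methods, the authors aligned reads with BWA to UMD3.1.1, kept unique alignments with few mismatches and called peaks with MACS2 against the input, so repeats are under-represented. Reads were 75 nt long per the labels. Positions were read as 1-based with both ends included, since the lowest end minus start was 199 in the lists. Overlaps, gaps and merging were computed in Python 3.11.15 with numpy 2.4.6, pandas 2.3.3 and scipy 1.17.1, and tested on simulated data. RNA pol II time points follow the labels, with which the study's text conflicts. Touching means sharing at least 1 bp. The genome was the summed highest peak end per chromosome. Named regions were the 5 widest gained peaks within 1 kb and over 50 kb of an older H3K27ac peak, those touching H3K9ac and RNA pol II after weaning, the 5 fullest runs and the widest peak left out for H3K9me3. The gene table used here is of the assembly ARS-UCD2.0, so genes, cell type markers, TSS distances and sequences were not analysed here. The regions and comparisons were chosen with earlier results of these data known.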

Additional observations from a re-analysis of the deposited data

How the results depend on the processing

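Of 73 recomputed values, 40 stayed within the interval of the reported value (or within a factor of 1.5 for the number of gained peaks) and 33 moved. Each group has 1 library, and none was left out. No paired analysis was possible because each group holds 1 library and the result comes from no test. The distance to a TSS was not run. Leaving out peaks of 200 bp, and the number of gained peaks without the chromosome 17 cluster, were chosen after seeing the data. Starts counted from 0, chromosomes 1 to 29 and X, and leaving out the chromosome 17 cluster moved no value. The last 2 of these settings left the same 6823 gained peaks, of which 0 lay in the cluster. Their values were identical to the reported ones by construction, yet they are counted among the 40.

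With a reciprocal overlap of 50%, gained peaks numbered 19354, 76.5% within 1 kb of an older peak and 3.30% beyond 50 kb. Their median width was 264 bp, and 15.9% and 1.93% met H3K9ac before and after weaning and 2.32% and 0.222% RNA pol II. This setting counts partly overlapping peaks as gained by construction. With the older list cut to its widest peaks there were 12509, of which 24.0% lay within 1 kb and 18.4% beyond 50 kb, with a median of 252 bp, H3K9ac at 4.76% and 1.76% and RNA pol II before weaning at 0.376%. With only H3K27ac peaks wider than the median there were 2296, of which 25.3% lay within 1 kb and 15.5% beyond 50 kb, with a median of 395 bp, H3K9ac at 2.92% and 3.35% and RNA pol II at 0 of 2296 at either time (0%). With older H3K27ac and H3K9me3 peaks extended by 1 kb there were 4439, and only their number was computed. After merging peaks within 1 kb, 19.6% lay within 1 kb and 11.0% beyond 50 kb, with a median of 246 bp. Without the H3K9me3 condition 9.70% lay beyond 50 kb, and H3K9ac was at 1.99% and 3.15% and RNA pol II at 2.43% and 2.76%. Without peaks of 200 bp the median was 258 bp.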
